A study of Mus musculus with 16 samples.

Results

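The Rab genes encode small GTPases that mark the membranes of the vesicle and endosome system. They were taken from the count table by symbol, as every gene whose name is Rab followed by a number and, in some cases, a letter or a second digit. This gave 57 of the 23337 gene symbols, and 38 of the 57 passed the filter on low counts that left 9213 genes for testing. Relatives whose names do not have this form, such as Rabl or Rap genes, were not included. Blood neutrophils of 8 week old mice were measured by bulk RNA-Seq as 16 libraries. LTβRΔN mice (Ltbr fl/fl crossed to Mrp8-Cre, C57/Bl6) lack the lymphotoxin β receptor in cells in which the S100A8 promoter drives Cre, and controls were littermates without Cre that carry the same floxed allele. The libraries carry the treatment labels unstimulated and stimulated, of which the unstimulated label is on 3 control and 4 LTβRΔN libraries and the stimulated label on 4 control and 5 LTβRΔN libraries.

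By the labelled protocol, cells were cultured for 2 h in 100 ng/ml TNF, 50 ng/ml IL-6 and 100 ng/ml GM-CSF, to which LIGHT (500 ng/ml), a ligand of the lymphotoxin β receptor, was or was not added. The design text of the series gives the inflammatory cytokines themselves as what was present or absent. No label says for a single library which factors were added, so the groups keep the words of their labels. Nothing in the labels says whether libraries of a group came from separate animals, and p-values then measure only the spread between these libraries.

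A Rab protein is switched on when an exchange factor loads it with GTP, recruits effectors such as tethers and motors while it is on, and is switched off by a GTPase activating protein. Each Rab is bound to certain membranes: Rab5 proteins to early endosomes and young phagosomes, Rab7 to late endosomes and lysosomes, Rab11 and Rab4 proteins to recycling endosomes, Rab1, Rab2 and Rab6 proteins to the endoplasmic reticulum and Golgi, and Rab27 and Rab3 proteins to secretory granules. Neutrophils depend on this system to fuse granules with the phagosome and the cell surface.

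Library totals ranged from 1094335 to 11932653 counts. The shallowest were 3 LTβRΔN libraries (unstimulated replicate 2 and stimulated replicates 1 and 3), at 1094335 to 1697583 counts, followed by stimulated LTβRΔN replicates 4 and 5 at 2408608 and 2728981 counts. The median total was 2408608 counts in stimulated LTβRΔN and 8255787.5 in stimulated control libraries, so depth differed between these groups. Ltbr itself lay between 84.6 and 154 CPM (a gene's counts relative to its library's total, on the usual scale, after TMM, a factor that evens out library composition) in control and between 0.705 and 18.1 CPM in LTβRΔN libraries. The 7 neutrophil markers present in the table (S100a8, S100a9, Csf3r, Cxcr2, Mmp8, Mmp9 and Retnlg) summed to between 45000 and 75500 CPM in every library. The 4 T cell markers summed to between 4.3 and 16.4 CPM, with Cd3e at 0 counts throughout, and 5 monocyte markers to between 224 and 440 CPM, nearly all of it Csf1r, with Ccr2 and Cx3cr1 at 0 in all but 1 library each. Stimulated control replicate 3 stood out with a summed level of 182 CPM for 5 platelet markers and of 764 CPM for 6 markers of immature neutrophils. Nearly all of the latter sum was Camp, Ltf and Ngp (196, 187 and 370 CPM), and Elane and Mpo had 0 counts in every library. Stimulated control replicate 1 had the lowest median correlation with the other libraries (0.844, against 0.865 to 0.908). In bulk samples, a change in the number of cells of a type and a change in the RNA per cell cannot be told apart.

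Rab20, a Rab of endosomes and phagosomes, was the one Rab gene that passed the test between treatment labels, in both genotypes, and it is therefore shown with its promoter. The gene lies on the minus strand of chromosome 8 of GRCm38, from 11453518 to 11478710, and its 1392 exonic bases overlap no exon of another gene in GENCODE M21. The 180 bases just before the annotated gene (GRCm38.p6, chr8:11478711-11478890, minus strand), taken from the RefSeq promoter sequences, are printed 5′ to 3′ as the upstream part of the window in which motifs were searched. They are printed in lower case throughout, and none of the motifs matched in them.
Rab20: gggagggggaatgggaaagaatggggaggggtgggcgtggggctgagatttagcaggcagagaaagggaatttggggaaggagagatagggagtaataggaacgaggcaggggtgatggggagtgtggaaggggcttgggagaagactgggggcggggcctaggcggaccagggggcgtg
The search covered both strands for the NF-kB motif, for TTCNNNGAA (bound by STAT factors) and for TGANTCA (bound by AP-1 factors), in windows of 250 bases before to 50 bases after each start. Of all 32851 promoters, 8.46%, 8.3% and 7.81% held these motifs, and of the 59 promoters found for 47 Rab genes 5.08%, 8.47% and 5.08% did. The absence of a match says only that these letters are not in this window.

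The 38 tested Rab genes covered a wide range of levels. By mean CPM over the 16 libraries, 20 lay over 100 CPM, 13 between 10 and 100 CPM and 5 under 10 CPM. Their median of 101 CPM compares with 15.9 CPM over all tested genes. Rab31, which acts between the trans-Golgi network and endosomes, had the highest CPM of the family in 16 of 16 libraries (463 to 679 CPM) and made up 10.9% of the summed Rab CPM. Rab8a, a Rab of exocytosis, followed with a mean of 418 CPM, and then the recycling Rab11b with 326 CPM, the ER to Golgi Rab1b with 325 CPM and Rab32, a Rab of lysosome-related organelles, with 323 CPM.

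Per kb of exons, a scale that allows for gene length, the leading members were closer to each other. The length used is that of the merged exons of all annotated transcripts of a gene. Which transcripts were expressed was not determined, so comparisons between genes on this scale are approximate. Mean levels were 145 CPM per kb for Rab31, 143 for Rab1b, 138 for Rab32, 132 for the recycling Rab4b and 107 for Rab20. On this scale Rab31, Rab1b and Rab32 each led in 4 libraries, Rab4b in 3 and Rab20 in 1, so the order of the leading members differed between libraries. Of the exonic bases of Rab4b, 65% also belong to the readthrough gene Gm21983 on the same strand, and of those of Rab24 62.4% overlap Prelid1 on the opposite strand. The strand setting of the counting is not given in the sources used here, and the levels of these members are uncertain to that extent.

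**Figure D1:**
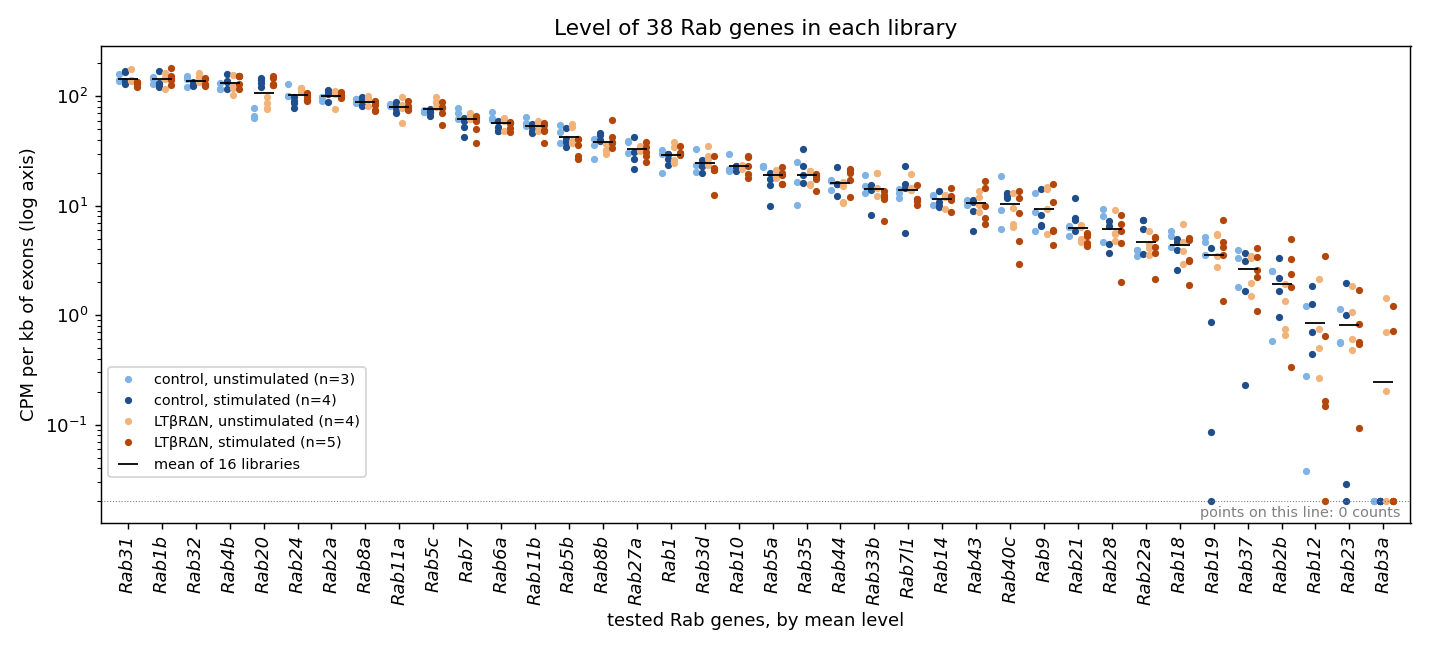
CPM per kb of exons (log axis) of the 38 tested Rab genes, ordered by their mean over 16 libraries (black dash), with 1 point per library coloured by group; points on the dotted line have 0 counts. Levels run from 145 CPM per kb for Rab31 to 0.243 for Rab3a, and the unstimulated and stimulated points of Rab20 lie apart in both genotypes.

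The spread between libraries of a group followed the level. The coefficient of variation within groups lay between 8.04% and 21% for the 20 members over 100 CPM, between 15% and 46.8% for the 13 members of intermediate level and between 49.9% and 170% for the 5 lowest. Rab32 was the steadiest member (8.04%), followed by Rab8a (8.53%) and Rab24 (9.21%). For members over 100 CPM the median was 12.7%, and for all 1368 tested genes over 100 CPM it was 14.4%.

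Several well known Rab genes were hardly or not detected. Of the 19 members under the filter, 12 had 0 counts in every library: Rab3c, Rab4a, Rab9b, Rab15, Rab17, Rab26, Rab30, Rab34, Rab36, Rab38, Rab39 and Rab39b. A count of 0 allows a level of up to 3 counts, which is between 0.228 CPM in the deepest and 2.4 CPM in the shallowest library, or 0.0304 CPM over the 16 libraries together, and covers counting error only. The other 7 were Rab27b with 89 counts in all libraries together, Rab6b with 73, Rab13 with 33, Rab40b with 24, Rab3b with 11, Rab25 with 2 and Rab33a with 1. Of the 89 counts of Rab27b, a granule Rab also found in platelets, 53 came from stimulated control replicate 3, the library with the highest platelet markers.

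In some families 1 paralog carried most of the signal, on the scale of CPM per kb, and in others it was shared. Rab27a held between 98.9% and 100% of the Rab27 signal in stimulated control libraries, and Rab4b held all of the Rab4 signal, as Rab4a had 0 counts. Rab2a held a mean of 97.6% to 98.8% and Rab1b of 81.9% to 83.7% of their families across the 4 groups. The Rab5 family was shared, with group means of 51.1% to 58.2% for Rab5c, 27.2% to 32.5% for Rab5b and 12.2% to 16.3% for Rab5a. The Rab11 family was shared as well, with 58.8% to 62.1% for Rab11a and 37.9% to 41.2% for Rab11b. In CPM, without gene length, the order was reversed: Rab5b (177 CPM) lay above Rab5c (168 CPM), and Rab11b (326 CPM) above Rab11a (242 CPM).

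Summed over the family, the Rab genes lay at 5156 ± 119 CPM (SD, n = 3) in unstimulated and 5016 ± 224 CPM (SD, n = 4) in stimulated control libraries, and the groups overlapped. In LTβRΔN libraries the sums were 5183 ± 99.9 CPM (SD, n = 4) and 4949 ± 126 CPM (SD, n = 5), and stimulated replicate 2, at 5146 CPM, was the 1 stimulated library within the unstimulated range of 5075 to 5305 CPM. As a share of raw counts they took 0.547% to 0.584% in unstimulated and 0.456% to 0.489% in stimulated control libraries, and 0.524% to 0.596% and 0.453% to 0.485% in LTβRΔN libraries. The share of raw counts was thus lower in every stimulated library, while the TMM-scaled sums overlapped: TMM factors lay between 1.03 and 1.14 in unstimulated and between 0.916 and 0.951 in stimulated libraries. With library totals in place of TMM the midpoint of the fitted log2 changes over the 9213 genes shifted from -0.02 to -0.27 in control and from -0.03 to -0.21 in LTβRΔN libraries, so changes are given relative to the TMM scale.

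By role, early endosome members held 23.9% of the summed Rab CPM, ER and Golgi members 20.7%, recycling members 20.4%, secretion members 19.9%, late endosome and lysosome members 10.3% and the other 3 members 4.81%. The 7 early endosome genes summed to between 1185.7 and 1188.8 CPM in unstimulated control and between 1152.4 and 1413.4 CPM in stimulated control libraries. The late endosome and lysosome genes summed to 548.7 ± 41.7 CPM (SD, n = 3) in unstimulated and 482.5 ± 48.2 CPM (SD, n = 4) in stimulated control libraries, and to 568.1 ± 30.5 CPM (SD, n = 4) and 494.7 ± 37 CPM (SD, n = 5) in LTβRΔN libraries. Both pairs overlapped. These sums are a description, and no test was made of them.

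**Figure D2:**
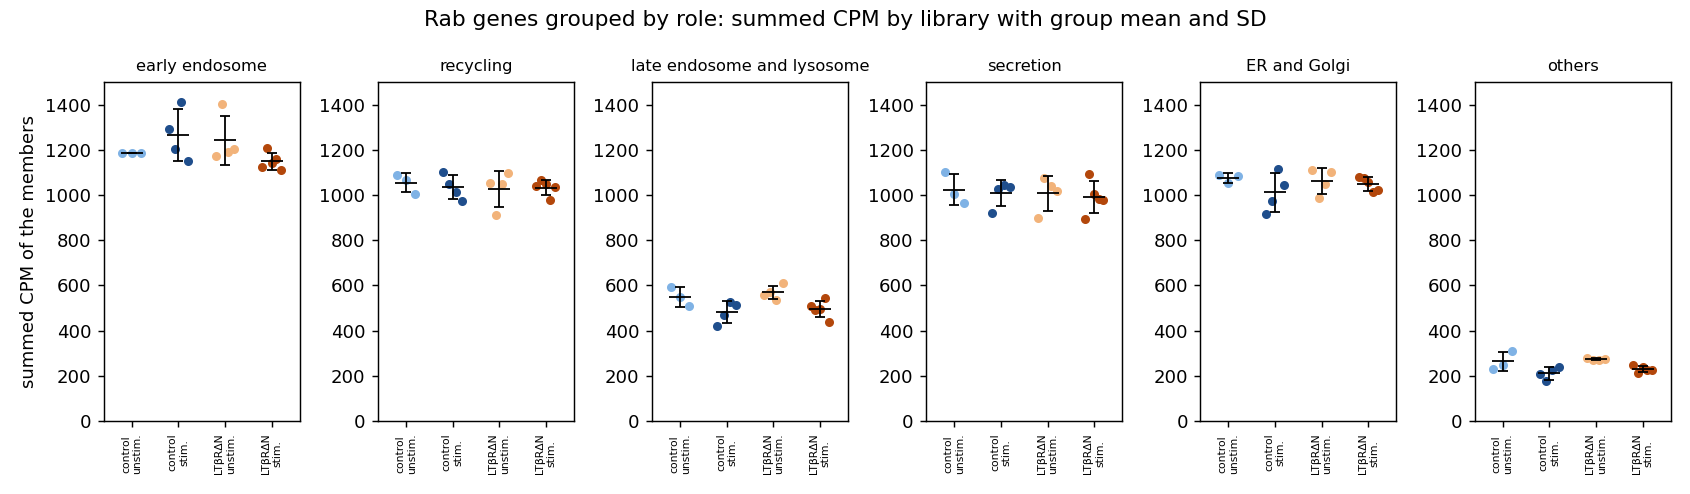
Summed CPM of the Rab genes of each role, with 1 point per library and the mean and SD of each group. Most role sums overlap between groups, and the 3 other members (Rab23, Rab24 and Rab28) sum to 268.9 to 277.8 CPM in unstimulated and 211.3 to 244.8 CPM in stimulated LTβRΔN libraries.

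The first question was what differed with the treatment label. Among 38 tested Rab genes 1 was called in control libraries and 1 in LTβRΔN libraries (2.63% each, edgeR adjusted p under 0.05), which was Rab20 both times, where 3.48% and 3.73% of all tested genes were called (2.82% higher and 0.662% lower in control, 2.98% higher and 0.749% lower in LTβRΔN libraries). With 1 gene called, the share of the family was near that of the table in both. At an unadjusted edgeR p under 0.05 there were 6 of 38 members in each genotype (15.8%), against 11.4% and 13% of all tested genes. The median log2 fold change of the 38 members was -0.04 in control and -0.12 in LTβRΔN libraries, compared with -0.02 and -0.03 over the whole table. Of the members, 14 were fitted higher and 23 lower in control, 12 higher and 26 lower in LTβRΔN libraries, and with library totals in place of TMM the splits were 6 and 31, and 4 and 34.

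Rab20 measured 109, 92.8 and 89.0 CPM in the 3 unstimulated control libraries and 171, 185, 206 and 198 CPM in the 4 stimulated ones. The lowest stimulated value, 171 CPM, was well above the highest unstimulated one. The mean rose from 96.9 ± 10.6 CPM (SD, n = 3) to 190.2 ± 15.1 CPM (SD, n = 4), a log2 fold change of 0.97 (SE 0.15, 1.96-fold, edgeR adjusted p = 9.72e-05). By its edgeR p it was the 124th of 9213 genes in this comparison. An exact two-sided permutation test of its log2 level gave p = 0.0286, the smallest that 4 against 3 libraries allow. Groups without overlap give a value at or near this limit, and Rab20 was picked from these same values. The permutation test therefore adds no support.

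In LTβRΔN libraries Rab20 measured 137, 109, 107 and 121 CPM without and 176, 178, 182, 212 and 203 CPM with stimulation, again with no overlap. The log2 fold change was 0.68 (SE 0.13, 1.6-fold, edgeR adjusted p = 0.00173), and the exact two-sided permutation p = 0.00794 was the smallest that 5 against 4 libraries allow. For the same reason as in control libraries, this permutation p adds no support. The difference between the genotypes in this change was -0.29 on the log2 scale (SE 0.20, edgeR adjusted p = 1) and did not pass the test. Per kb, Rab20 moved from rank 11 to rank 4 of the 57 members in control and from rank 9 to rank 3 in LTβRΔN libraries. The index S520 was used for 6 unstimulated libraries and S521 for the remaining unstimulated and all 9 stimulated libraries, so index and label can hardly be told apart. The 1 unstimulated library with S521, control replicate 3, lay at 89.0 CPM, below the 171 to 212 CPM of the 9 stimulated libraries with that index. With the index as a covariate, the control comparison sets the stimulated libraries against that 1 unstimulated library alone, so it cannot separate index from label. The call was lost in LTβRΔN libraries, where the log2 fold change was 0.86 (edgeR adjusted p = 0.304). In LTβRΔN libraries index and label coincide fully, so the index effect used there was estimated from the unstimulated control libraries alone.

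**Figure D3:**
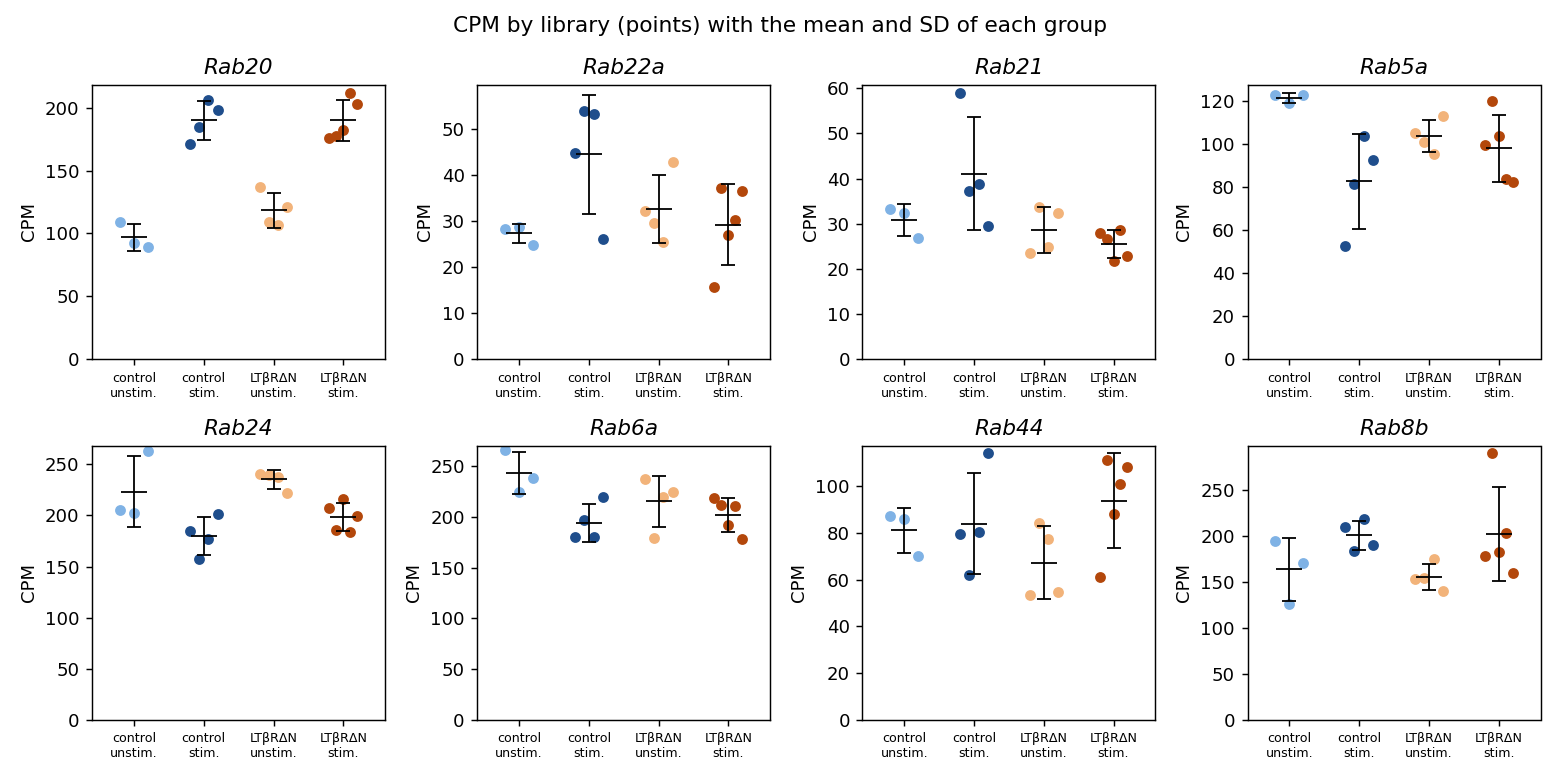
CPM of 8 Rab genes, with 1 point per library and the mean and SD of each of the 4 groups; each axis starts at 0. Rab20 rises in both genotypes (89.0 to 109 against 171 to 206 CPM in control) with no overlap, while the stimulated control libraries of Rab22a, Rab21 and Rab5a are spread widely.

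The other early endosome members did not pass the test. Rab5a, which drives fusion of early endosomes (chromosome 17 of GRCm38, 53479234 to 53507680), lay at 123, 119 and 123 CPM in unstimulated control and at 52.7, 81.4, 104 and 92.6 CPM in stimulated control libraries. The groups did not overlap, and the lowest value was that of replicate 1. Its log2 fold change was -0.55 (SE 0.20, edgeR adjusted p = 0.177), and in LTβRΔN libraries -0.08 (SE 0.18, edgeR adjusted p = 0.946). With library totals in place of TMM it was called in control libraries (log2 fold change -0.81, edgeR adjusted p = 0.0131). The interaction of genotype and label was 0.48 on the log2 scale (SE 0.27, edgeR adjusted p = 1).

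Rab22a, a relative of Rab5 in early endosome sorting, lay at 28.3, 28.6 and 24.8 CPM in unstimulated and at 44.6, 53.9, 53.1 and 26.0 CPM in stimulated control libraries. Of the 4 stimulated libraries 3 were above all unstimulated ones and replicate 4 was among them (log2 fold change 0.70, SE 0.31, edgeR adjusted p = 0.36). In LTβRΔN libraries the change was -0.15 (SE 0.28, edgeR adjusted p = 0.93), and the interaction was -0.85 (SE 0.41, edgeR adjusted p = 1). Rab21, which carries integrins through early endosomes, changed by 0.41 (SE 0.27) in control and -0.15 (SE 0.25) in LTβRΔN libraries, neither past the threshold of the edgeR test. Rab5b fell short of the threshold in LTβRΔN libraries with a log2 fold change of -0.41 (SE 0.17, edgeR adjusted p = 0.275). Rab5c and Rab31 stayed within 0.06 on the log2 scale in control libraries (-0.02, SE 0.15, and 0.05, SE 0.13), and Rab31 was fitted at -0.19 (SE 0.11, edgeR adjusted p = 0.538) in LTβRΔN libraries, where its groups did not overlap.

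Among the ER, Golgi and autophagy members, Rab6a (Golgi transport) lay at 266, 225 and 239 CPM in unstimulated and at 180, 197, 180 and 220 CPM in stimulated control libraries, with no overlap (log2 fold change -0.33, SE 0.14, edgeR adjusted p = 0.322), and 19% of its exonic bases overlap those of Mrpl48. Rab24, linked to autophagy, was 202 to 263 CPM against 157 to 201 CPM in control and 222 to 241 CPM against 184 to 216 CPM in LTβRΔN libraries. No groups overlapped for Rab24 in either genotype, and its log2 fold changes of -0.31 (SE 0.14) and -0.25 (SE 0.12) did not pass the edgeR test (adjusted p = 0.36 and 0.395). Both Rab6a and Rab24 passed it in control with library totals in place of TMM (edgeR adjusted p = 0.00958 and 0.015), a scale on which the whole table shifts downwards. Rab33b, a Golgi Rab of autophagy, had a log2 fold change of -0.57 (SE 0.24, edgeR adjusted p = 0.279) in LTβRΔN and -0.25 (SE 0.26) in control libraries. Rab1, Rab1b and Rab2a lay within 0.14 of no change in both genotypes (SE 0.13 to 0.19), and Rab18, a Rab of lipid droplets, was at -0.36 (SE 0.34) and -0.32 (SE 0.31).

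Groups did not overlap for 4 of 38 members in control (Rab20 higher; Rab24, Rab5a and Rab6a lower; 10.5%) and for 3 in LTβRΔN libraries (Rab20 higher; Rab24 and Rab31 lower; 7.89%). Over all tested genes the shares were 12.7% (6.58% higher, 6.09% lower) and 7.28% (4.61% higher, 2.67% lower), so the members were near the background in both.

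The secretion members, which serve granule release, did not pass the test either. Rab27a, the Rab of neutrophil granule exocytosis, lay at 117 to 153 CPM in unstimulated and at 84.2 to 165 CPM in stimulated control libraries (log2 fold change -0.25, SE 0.20, edgeR adjusted p = 0.775), and its change in LTβRΔN libraries was -0.08 (SE 0.18). Rab3d, of secretory granules, changed by -0.17 (SE 0.22) and -0.43 (SE 0.20, edgeR adjusted p = 0.362). Rab44, a large Rab with calcium-binding motifs, lay at 53.4, 84.0, 77.2 and 54.6 CPM in unstimulated and at 61.0, 111, 88.1, 101 and 108 CPM in stimulated LTβRΔN libraries. Of the 5 stimulated libraries 4 were above all unstimulated ones, and the log2 fold change of 0.51 (SE 0.21, edgeR adjusted p = 0.273) compares with 0.05 (SE 0.23) in control. Rab8b was fitted at 0.29 (SE 0.19) and 0.39 (SE 0.17), and Rab8a at -0.04 (SE 0.12) and -0.19 (SE 0.11). The share of Rab8b in the Rab8 family, per kb, was 27.2% ± 3.66 (SD, n = 3) against 32.3% ± 3.62 (SD, n = 4) in control and 25.9% ± 2.50 (SD, n = 4) against 33.9% ± 4.66 (SD, n = 5) in LTβRΔN libraries. Rab10 and Rab37 had log2 fold changes of -0.11 (SE 0.19) and -0.49 (SE 0.60) in control.

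The recycling members lay close to no change. Rab11a, Rab11b, Rab14 and Rab4b lay between -0.20 and 0.17 in both genotypes with standard errors of 0.13 to 0.17, and Rab35 was at 0.40 (SE 0.28) in control and -0.06 (SE 0.25) in LTβRΔN libraries. Of the late endosome and lysosome members, Rab7 was fitted at -0.38 (SE 0.18, edgeR adjusted p = 0.425) in control and -0.25 (SE 0.16) in LTβRΔN libraries. Rab32 was at -0.13 (SE 0.12) and -0.16 (SE 0.11), and Rab9 at -0.04 (SE 0.47) and -0.38 (SE 0.42).

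**Figure D4:**
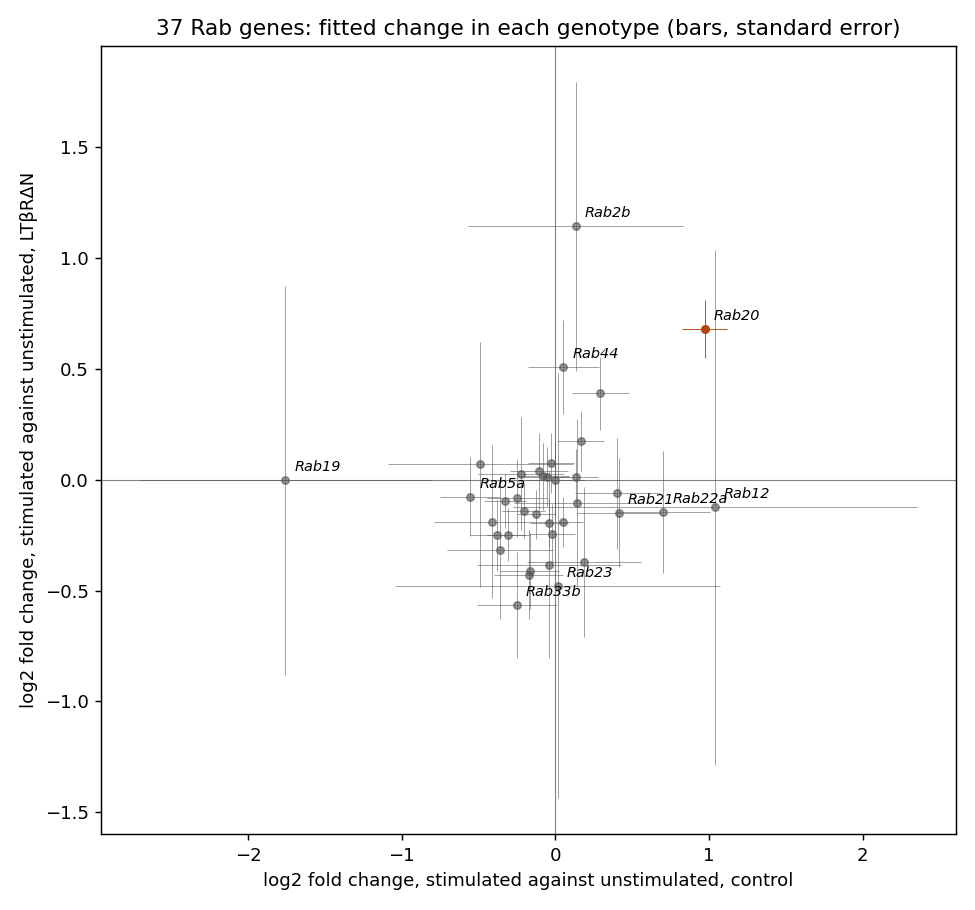
Fitted log2 fold change of 37 Rab genes between treatment labels in control (horizontal axis) and LTβRΔN libraries (vertical axis), with bars of 1 standard error; Rab3a, with 0 counts in control, is left out. Rab20 stands at 0.97 and 0.68 with short bars, while Rab19, Rab12, Rab23 and Rab2b, the members under 10 CPM, have bars of up to 1.32.

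Other members of intermediate level varied widely between libraries. Rab35, a recycling Rab, was highest in stimulated control replicate 1 (92.8 CPM) and lowest in unstimulated control replicate 3 (28.8 CPM), the extremes of all 16 libraries. Rab37, linked to granule secretion, ranged from 1.22 CPM in stimulated control replicate 1 to 21.8 CPM, and Rab7l1, of the lysosome and Golgi, from 8.24 CPM in that same library to 34.1 CPM in stimulated control replicate 3. Rab43, with 75.4% of its exonic bases shared with Gm45140 on the same strand, ranged from 32.2 to 92.7 CPM, Rab40c from 9.16 to 58 CPM and Rab28 from 9.16 to 42.3 CPM. For these 6 members the log2 fold changes between labels lay between -0.49 and 0.40 with standard errors of 0.25 to 0.60. Of the lowest members, Rab23 was at 0 CPM in stimulated control replicate 1 and at 16.3 CPM in replicate 3, and Rab2b ranged from 1.41 to 20.7 CPM.

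Both comparisons were made on separate libraries. Over the 38 members Pearson's r between the log2 fold changes of the 2 genotypes was 0.225, and 23 members (60.5%) had the same sign, against 0.339 and 62.1% over all tested genes. This is a correlation across genes, which are not independent replicates. The largest fitted values of low members rest on few counts: Rab19 (log2 fold change -1.76, SE 0.95, edgeR adjusted p = 0.533 in control) had 108, 50 and 52 counts in unstimulated and 1, 0, 66 and 11 counts in stimulated control libraries, and was called when replicate 3, the one with 66 counts, was left out (-3.65, edgeR adjusted p = 0.0369).

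The second question was what differed with the genotype at the same label. No Rab gene was called by edgeR in unstimulated or in stimulated libraries (0 of 38 each, also by DESeq2), where 0.0217% of all tested genes (2 of 9213) were called each time. At an unadjusted edgeR p under 0.05 there was 1 member in unstimulated libraries (Rab3a, 2.63%, against 2.8% of all tested genes). In stimulated libraries there were 3 (Rab21, Rab22a and Rab3a, 7.89%, against 6.41%). Rab3a had counts only in LTβRΔN libraries and passed the filter through them alone. Median log2 fold changes of the members were 0.02 in both, and the median over all tested genes was -0.01.

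In unstimulated libraries Rab5c lay at 157, 163 and 157 CPM in control and at 194, 214, 175 and 193 CPM in LTβRΔN neutrophils, with every LTβRΔN library higher (log2 fold change 0.29, SE 0.15, edgeR adjusted p = 1). Rab5a was the reverse, at 119 to 123 CPM in control and 95.3 to 113 CPM in LTβRΔN libraries (-0.23, SE 0.20, edgeR adjusted p = 1). These 2 members (5.26%) were the ones without overlap, where 5.71% of all tested genes had none (2.54% higher, 3.17% lower). The share of Rab5a in the Rab5 family, per kb, was 16.3% ± 1.36 (SD, n = 3) in control and 12.8% ± 1.54 (SD, n = 4) in LTβRΔN unstimulated libraries, and 12.2% ± 2.74 (SD, n = 4) and 14.6% ± 1.15 (SD, n = 5) in stimulated ones. Rab20 was fitted at 0.29 (SE 0.15, edgeR adjusted p = 1) with overlapping groups, and an exact two-sided permutation test of its level gave p = 0.143.

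In stimulated libraries Rab21 was the member without overlap (1 of 38, 2.63%, against 1.31% of all tested genes, 0.651% higher and 0.662% lower). It lay at 58.9, 37.2, 38.7 and 29.5 CPM in control and at 28.0, 26.5, 21.8, 28.7 and 22.9 CPM in LTβRΔN libraries (log2 fold change -0.68, SE 0.24, edgeR adjusted p = 0.636). The nearest values, 29.5 and 28.7 CPM, were close, and the highest was that of replicate 1. Rab22a had a log2 fold change of -0.59 (SE 0.27, edgeR adjusted p = 0.762) there. Rab20 was level between the genotypes, at 190.2 ± 15.1 CPM (SD, n = 4) in control and 190.2 ± 16.4 CPM (SD, n = 5) in LTβRΔN libraries (log2 fold change 0.00, SE 0.13).

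Rab3a, a Rab of regulated exocytosis known best from synapses, had 0 counts in all 7 control libraries and 36 counts in 5 of 9 LTβRΔN libraries. The counts were 10, 4, 2 and 0 in the unstimulated and 0, 13, 0, 0 and 7 in the stimulated LTβRΔN libraries. Pooled over the LTβRΔN libraries this is 0.905 CPM, at least 17.7-fold higher than the 0.051 CPM that 3 counts over the control libraries would give. This ratio describes pooled counts and says nothing of the spread between libraries. Rab3a passed the filter on low counts only through the LTβRΔN libraries, so its difference between the genotypes is not support for a genotype effect. It was not called in either genotype comparison (edgeR adjusted p = 1 and 0.676).

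For the interaction of genotype and treatment label 0 of 38 members were called by edgeR, and 0 had an unadjusted p under 0.05, where 0% and 3.71% of all tested genes did. By DESeq2 0 of 38 members were called as well.

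The regulators of Rab proteins were read from lists of prenylation and recycling factors, exchange factors, GTPase activating proteins, effectors and genes of granule and vesicle fusion, with 126 genes in the table and 96 tested. In control libraries 2 of 96 were called (2.08%) and in LTβRΔN libraries 5 (5.21%), against 3.48% and 3.73% of all tested genes. In both genotype comparisons 0 of 96 were called by edgeR, with 2 (2.08%) and 9 (9.38%) of them at an unadjusted p under 0.05, against 2.8% and 6.41% of all tested genes, and by DESeq2 0 and 1 (Sgsm3). By list, 1 of 25 exchange factors (Rabgef1) and 1 of 28 GTPase activating proteins (Sgsm3) were called in control libraries, and 2 of 25 exchange factors (Rabgef1 and Dennd5a), 1 of 28 GTPase activating proteins (Tbc1d4) and 2 of 21 effectors (Eea1 and Rilpl2) in LTβRΔN libraries. Of the 7 prenylation and recycling factors and the 15 fusion genes 0 were called in either, and with library totals in place of TMM Gdi2 was called in control and Rabac1 and the fusion gene Stx7 in LTβRΔN libraries.

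Rabgef1, the exchange factor that activates Rab5 proteins, rose in both genotypes. It lay at 275, 210 and 211 CPM in unstimulated and at 401, 461, 520 and 373 CPM in stimulated control libraries, with no overlap (log2 fold change 0.92, SE 0.19, edgeR adjusted p = 0.0029). In LTβRΔN libraries it lay at 226 to 277 CPM without and at 317 to 578 CPM with stimulation (0.74, SE 0.16, edgeR adjusted p = 0.00666), also with no overlap. The unstimulated library with index S521 lay at 211 CPM. With the index as a covariate the call in LTβRΔN libraries was lost (log2 fold change 0.94, edgeR adjusted p = 0.548). In control libraries the call was not kept, at a log2 fold change of 1.05 that sets the stimulated libraries against that 1 library alone. Without the 3 shallow libraries the call in LTβRΔN libraries was lost as well (log2 fold change 0.68, edgeR adjusted p = 0.101).

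Dennd5a, another exchange factor, rose in LTβRΔN libraries from 84.0 to 101 CPM to 113 to 230 CPM (log2 fold change 0.81, SE 0.22, edgeR adjusted p = 0.0373) and had a log2 fold change of 0.75 (SE 0.25, edgeR adjusted p = 0.124) in control. Rilpl2, an effector related to the lysosomal Rab7 partner Rilp, fell in LTβRΔN libraries from 139 ± 16 CPM (SD, n = 4) to 89.3 ± 9.37 CPM (SD, n = 5) with a log2 fold change of -0.65 (SE 0.17, edgeR adjusted p = 0.0301), and had the same log2 fold change in control (-0.65, SE 0.19, edgeR adjusted p = 0.0648). Eea1, the Rab5 tether of early endosomes, rose in LTβRΔN libraries from 2.81 to 7.02 CPM to 11.2 to 23.8 CPM (1.65, SE 0.45, edgeR adjusted p = 0.0376), whereas control libraries stood at 9.74 to 15 CPM and 6.44 to 19.5 CPM (0.04, SE 0.47). The interaction for Eea1 was 1.61 (SE 0.64, edgeR adjusted p = 1), so a difference between the genotypes was not shown.

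Tbc1d4, a GTPase activating protein known from Rab10 in glucose transporter traffic, had 8 counts in the 4 unstimulated and 254 counts in the 5 stimulated LTβRΔN libraries (edgeR adjusted p = 0.0292), and 47 and 292 counts in the control libraries. All 47 came from unstimulated control replicate 1, and 214 of the 292 from stimulated control replicate 3. The unstimulated LTβRΔN libraries had 6, 0, 2 and 0 counts. Tbc1d4 passed the filter on low counts only because of the stimulated libraries, so its call is not support for a change with the label. Sgsm3 had 97 counts in unstimulated and 0 in stimulated control libraries, at least 33-fold lower against the limit of 3 counts over that group (edgeR adjusted p = 0.0462). This ratio describes pooled counts and says nothing of the spread between libraries. By library, unstimulated control lay at 3.96, 4.87 and 0.281 CPM. The last value, under the limit of 0.421 CPM for 3 counts there, is that of replicate 3, the unstimulated library with index S521. In LTβRΔN libraries Sgsm3 had 7 counts without and 52 with stimulation.

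Rabgef1 kept both calls when any of the 16 libraries was left out, and the other 5 regulators did not, although their fitted changes kept their direction. Dennd5a lost its call without any one of the 4 unstimulated LTβRΔN libraries or of stimulated replicates 1, 2, 3 and 5 (edgeR adjusted p = 0.051 to 0.129), with a log2 fold change of 0.65 to 0.91 over the 16 removals. Eea1 lost it without any one of the 4 unstimulated libraries, of stimulated replicates 3, 4 and 5 (edgeR adjusted p = 0.0524 to 0.161) or of unstimulated control replicates 1 and 3, with a log2 fold change of 1.42 to 1.85. Rilpl2 lost it without unstimulated replicate 1, 3 or 4 or stimulated replicate 1, 2 or 4 (edgeR adjusted p = 0.0561 to 0.109), with a log2 fold change of -0.72 to -0.60. Tbc1d4 lost it without unstimulated replicate 2, 3 or 4 or stimulated replicate 2 (edgeR adjusted p = 0.0704 to 0.104). Sgsm3 lost it without unstimulated control replicate 1 or 2 or any one of the 4 stimulated control libraries (edgeR adjusted p = 0.0855 to 0.132), and without any of 6 LTβRΔN libraries, which enter its comparison through the shared spread.

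**Figure D5:**
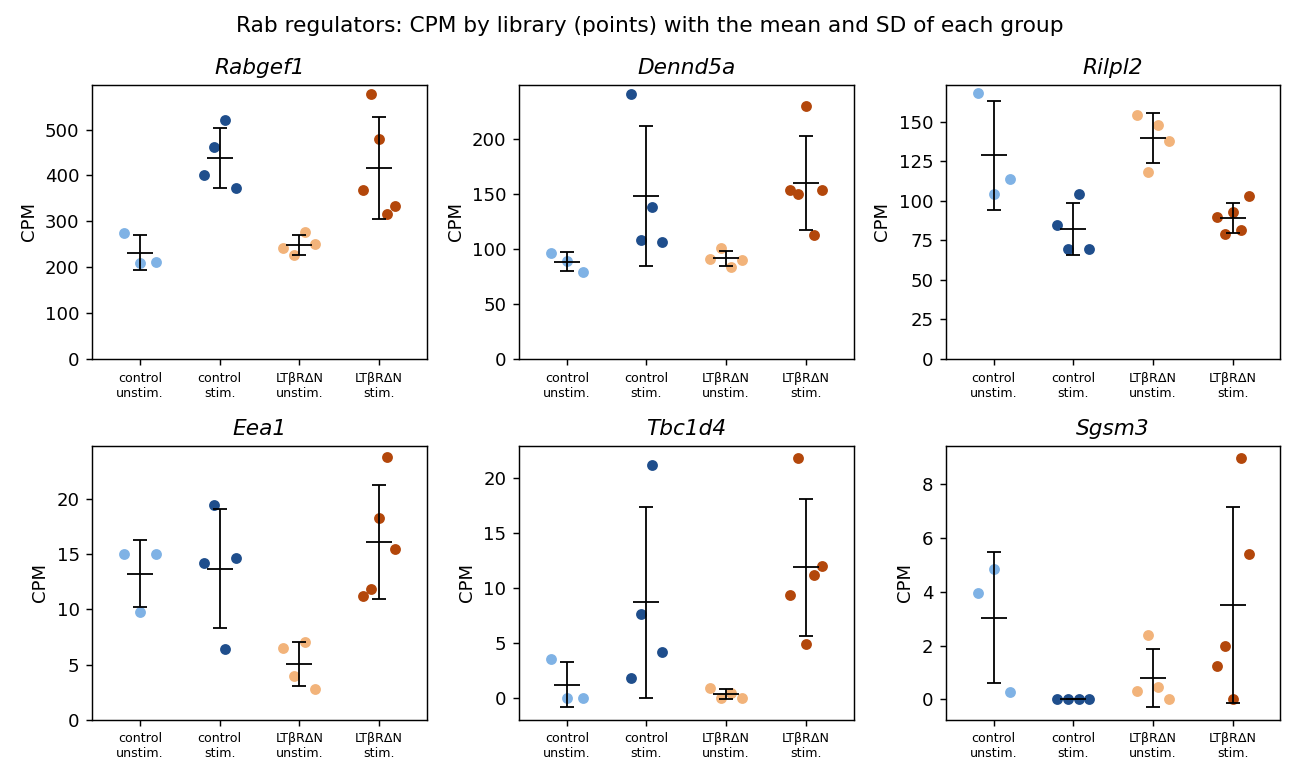
CPM of the 6 called Rab regulators, with 1 point per library and the mean and SD of each group. Rabgef1 rises in both genotypes with no overlap (373 to 520 CPM in stimulated control), and Tbc1d4 and Sgsm3 lie near 0 in at least 1 group.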

How the data were processed

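The authors deposited a table of whole-number read counts per gene symbol, not normalized. The submitters' processing notes name Bowtie 1.0.0, TopHat 1.4.1, HTSeq 0.7.1 and mm10, and the strand setting and annotation are not given in the sources used here. Libraries were assigned to groups from their labels. Counts of all 16 libraries were fitted with edgeR 4.0.16 (R 4.3.3) by the quasi-likelihood test, with a coefficient for each group and TMM factors, after filterByExpr (minimum count 10, minimum total 15). P-values were adjusted by Benjamini-Hochberg over 9213 genes, with 0.05 as the threshold. Standard errors were derived from the F statistic. The script was tested on simulated data. Libraries of a group differed by more than sampling noise (chi-square per degree of freedom 7.11 to 50.9 over 25 pairs). Exon lengths and overlaps are from GENCODE M21 by symbol (57 of 57 members, 2 through older symbols), and promoters from RefSeq.

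Members and lists were chosen with earlier results of these data known. Genes named are Rab genes called in a comparison, the 2 of smallest p per direction in each, the 3 highest, a list set by role, and called regulators. Others named were chosen after their values were seen. Alternatives were DESeq2 size factors, library totals, 2 other filters, DESeq2 1.42.0, the compared groups alone, the index as a covariate, the replicate block and each library left out.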

Additional observations from a re-analysis of the deposited data

Results flagged for a closer look

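Among 100 groups of 4 or 5 libraries examined over the named Rab genes and regulators and the Rab sum, 5 held a library whose gap to the next exceeded Dixon's 95% limit, and chance alone gives about 1 in 20, or 5. All were in LTβRΔN groups, and the unstimulated control group, with 3 libraries, was too small to be examined. Unstimulated replicate 2, the shallowest library (1094335 counts), was low for Rab14 (128 CPM, the others 165 to 171) and Rab2a (163 CPM, the others 226 to 239), and high for Rab31 (679 CPM, the others 527 to 542). Unstimulated replicate 4 was low for Rab24 (222 CPM, the others 238 to 241). Stimulated replicate 5 was high for Rab1 (135 CPM, the others 111 to 116).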

How the results depend on the processing

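The call of Rab20 in control libraries was kept under every alternative other than the index as a covariate, with a log2 fold change of 0.91 to 1.06 when single libraries were left out. With the index as a covariate, stimulated control libraries are set against 1 unstimulated library alone, and that fit is not counted. The call of Rab20 in LTβRΔN libraries (0.63 to 0.76) was kept under all but the index as a covariate. Library totals in place of TMM called 5 Rab genes in control (Rab20, Rab24, Rab5a, Rab6a and Rab7) and 3 in LTβRΔN libraries (Rab20, Rab24 and Rab8a), which are 13.2% and 7.89% of the members against 5.13% and 5.52% of all tested genes, with median log2 fold changes of -0.287 and -0.283, and 4 regulators in control and 6 in LTβRΔN libraries. The index as a covariate left 0 Rab genes and 0 regulators called in LTβRΔN libraries, 0 regulators in control, 157 and 79 of all genes in control and LTβRΔN libraries (321 and 344 without it) and 1 gene for the interaction, and turned Rab5b in LTβRΔN libraries from -0.41 to 0.05; the cause was not tested. The compared groups alone left 1 regulator in control, and dropping the 3 shallow libraries, an alternative chosen after seeing the data like upper-quartile scaling, left 0 in LTβRΔN libraries. Of all genes, the genotype comparison without stimulation called 2, with 4 when every gene with 1 count was tested, 1 with 10 counts required in every library and 4 by DESeq2, and that with stimulation called 2, with 1 and 14 under the last pair of alternatives, where DESeq2 called 1 regulator.

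Leaving out 1 library of the compared groups at a time gave 1 to 2 Rab genes in control and 1 to 1 in LTβRΔN libraries, 1 to 2 and 1 to 3 regulators (1 to 6 in LTβRΔN libraries when any of the 16 was left out), 2 to 6 of all genes for the genotype without stimulation and 0 to 2 for the interaction. The cause of these shifts was not tested.

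Numbers in the column names are shared by unstimulated and stimulated libraries, but no label says what they mark. Deviations of same-numbered libraries correlated by 0.021 to 0.069 over 7 pairs. In 6 of these pairs the unstimulated library correlated best with the stimulated library of its own number, among the 4 (control) or 5 (LTβRΔN) stimulated libraries of its genotype. The main fit did not pair the libraries, and these values do not settle whether the numbers mark pairs. With the numbers in the column names as a replicate block, 1 Rab gene (Rab20) was called in each genotype, and 3 regulators in LTβRΔN libraries. In control libraries the regulators called were then Rabgef1 and Rilpl2, and Sgsm3 was not called.

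Precision was lowest for the 5 tested members under 10 CPM, and the 19 members under the filter were not tested.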
